A study of Mus musculus with 2 samples.

Results

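The 9 genes Spo11, Mei1, Mei4, Dmc1, Msh4, Msh5, Mlh3, Hfm1 and Rnf212, which carry out meiotic recombination and crossover formation, were examined for RNA enriched with the RNA-binding protein ELAVL2 in newborn mouse ovary. They were chosen by gene symbol and looked up in the authors' deposited table, which pairs called peaks with Ensembl genes. Of the 9 genes, 4 had a peak over their body in that table (Spo11, Mei4, Msh4 and Hfm1), with 10 peaks in all. The whole series held 28332 peaks and 6158 overlapped genes. A peak overlapped 23.4% of protein-coding reference genes, and 34.8% of those within the length range of the 9. The exact binomial interval of 4 of 9 covers both shares, so the count could not be told apart from them.

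RNA from an immunoprecipitation (RIP) with an antibody against ELAVL2 was set against input RNA, which was drawn from the cleared lysate (5% of it) with no antibody step. The tissue was ovary of P0 (newborn) mice, with 100 ovaries in the homogenate, so both libraries pool animals and all ovarian cell types. The labels give no genotype, strain or treatment that sets the samples apart. The antibody (5 ug on protein G beads) was left in the lysate for 6 hours, and no pulldown with an unrelated antibody is among the samples, so RNA held by ELAVL2 and RNA held by the beads or the antibody cannot be told apart. There was 1 RIP sample and 1 input sample. No difference below has a replicate check, and no test between samples was possible.

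Meiotic recombination begins when SPO11 cuts both strands of the DNA on meiotic chromosomes, with help from MEI1 and MEI4. DMC1, a recombinase specific to meiosis, then drives strand invasion into the homologous chromosome. The MSH4-MSH5 pair, the helicase HFM1 and the RING-domain protein RNF212 select and stabilise intermediates that become crossovers, and MLH3 acts in their resolution. In the mouse female these steps take place in fetal oocytes, and around birth most oocytes come to rest late in prophase of the first meiotic division. ELAVL2 belongs to the Hu family, whose members bind U-rich RNA and are known for effects on mRNA stability and translation.

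Each peak carries the authors' own values. The pileup is the number of RIP tags, extended to 50 bp, that overlap at the peak's summit. The fold enrichment is that pileup plus 1 over a scaled local input level plus 1. The input level was worked back from pileup and fold. It is the highest of the input at the summit, in windows of 1 kb and 10 kb around it, and over the genome, and 1 input tag at the summit equals a level of 0.708. Pileups below have exact Poisson 95% intervals, and folds have intervals from these with the input level held fixed. These intervals cover counting error only, and because summits are the highest points of their regions they do not cover that selection. After removal of tags at repeated positions, 13787676 of 172711531 RIP tags (7.98%) were left for calling. Of 210270620 input tags, 19479946 (9.26%) were left. Coordinates are of the build mm10. The called peaks carry no strand, and placement in exons, introns or untranslated regions was not analysed here.

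**Figure D1:**
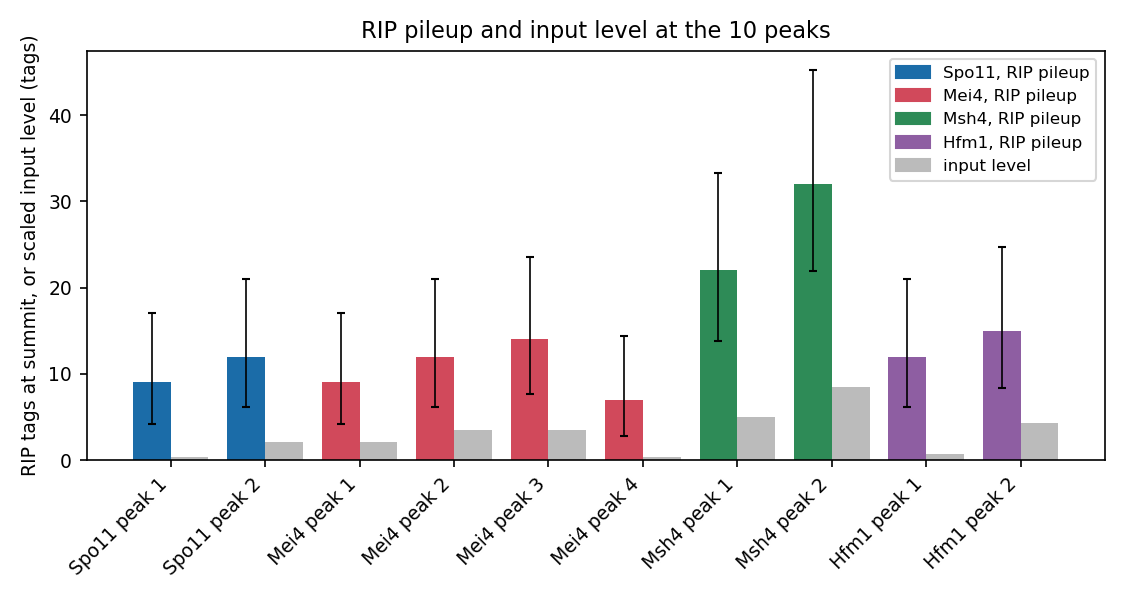
RIP pileup at the summit (coloured bars, tags, with exact Poisson 95% intervals) and scaled input level (grey bars) for each of the 10 peaks, numbered 5′ to 3′ within each gene. The Msh4 peaks have the highest values of both RIP pileup (22 and 32) and input level (4.95 and 8.49), and the first Spo11 peak and the fourth Mei4 peak have an input level of 0.369.

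Of the genes of break formation, Spo11 and Mei4 were overlapped and Mei1 was not. Spo11 encodes the topoisomerase-like enzyme that makes the breaks (ENSMUSG00000005883, chromosome 2, 172977700 to 172993576, plus strand). Its first peak, at 172988988 to 172989043, had a RIP pileup of 9 (4.12 to 17.1) against an input level of 0.369. That level is the genome-wide background, below 1 input tag, and the fold was 7.31 (3.74 to 13.2) with a -log10 q of 7.0. The second Spo11 peak, at 172993021 to 172993216, had a pileup of 12 (6.2 to 21) against a level of 2.12, or 3 input tags. Its fold was 4.16 (2.31 to 7.03) and its -log10 q 3.19. The intervals of the 2 folds overlap, and the difference in fold was not tested. Both were inside Spo11 alone, and the table also paired them with Rae1, whose start lies 6901 bp or more beyond them.

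Mei4 encodes a partner that SPO11 needs for cutting and is the longest of the 9 genes (ENSMUSG00000043289, chromosome 9, 81863670 to 82206007, plus strand, 342 kb). It held 4 scattered peaks with pileups of 7 to 14. From the 5′ side, the pileups were 9 (4.12 to 17.1), 12 (6.2 to 21), 14 (7.65 to 23.5) and 7 (2.81 to 14.4), against input levels of 2.12, 3.54, 3.54 and 0.369. The folds were 3.20, 2.86, 3.30 and 5.85 in the same order, and the interval of the last, 2.79 to 11.3, covers the other 3. The first peak (81927248 to 81927331, -log10 q 1.39) and the second (82025740 to 82025862, -log10 q 1.36) had the lowest pileups at which any peak of the series was called at their input levels, 9 and 12. The peaks of pileup 12 and 14 lay 72 bp apart, while 98408 bp and 73408 bp separated the others. The fourth, at 82099435 to 82099484, reached a -log10 q of 4.67 at the genome-wide background level. At that level the fold follows from the pileup alone, and 547 peaks of the series shared its pileup of 7 and fold of 5.85.

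Mei1, required for break formation (chromosome 15, 82070074 to 82126817 in the reference annotation, 56.7 kb), was absent from the table and its reference body held no peak. The nearest peak was 26128 bp upstream, inside Nhp2l1, with a pileup of 42 and a fold of 1.82. The absence of a peak says that no position passed the caller's q cutoff of 0.05. It does not give the RNA's level, which the peak list does not record. In these bulk lysates, fewer cells of a type and less RNA per cell cannot be told apart either.

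Dmc1, the strand-exchange recombinase (chromosome 15, 79561497 to 79605159, 43.7 kb), had no peak within 30 kb of its reference body. The nearest was 69114 bp upstream and inside Josd1.

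Among the MutS and MutL genes of the crossover pathway, Msh4 was overlapped and Msh5 and Mlh3 were not. Msh4 (ENSMUSG00000005493, chromosome 3, 153857149 to 153906138, minus strand) encodes the meiosis-specific MutS protein that pairs with MSH5. It had the highest RIP pileups of the 9 genes, and also the highest input levels. The peak at 153904213 to 153904299 had a pileup of 22 (13.8 to 33.3) against a level of 4.95, or 7 input tags, with a fold of 3.86 (2.48 to 5.76) and a -log10 q of 4.87. Its neighbour at 153904023 to 153904159 had a pileup of 32 (21.9 to 45.2) against a level of 8.49, or 12 input tags, with a fold of 3.48 (2.41 to 4.86) and a -log10 q of 6.01. The peaks were 53 bp apart, at 3.84% and 4.22% of the gene body from its 5′ end. Their summits lay 1882 and 2068 bp from the 5′ end of the gene body. A RefSeq (GRCm38.p6) transcription start for Msh4 lies inside that body, at 153904891. The summits were 635 and 821 bp downstream of it, and both peaks were paired with no other gene. A further peak lay outside, 1550 bp past the 3′ end of the reference body (153855542 to 153855591), with a pileup of 7 and a fold of 5.85, and was paired with Asb17os in the authors' deposited table.

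Msh5, the partner of Msh4 (chromosome 17, 35028605 to 35046997, minus strand, 18.4 kb), held no peak in its reference body. Peaks began 472 bp past its 3′ end, with 4 within 5 kb. The nearest, at 35028055 to 35028133, had a pileup of 14 (7.65 to 23.5) against a level of 2.12 and a fold of 4.80. The table paired it with Sapcd1, as 38 bp upstream of that gene, while the reference bodies of Sapcd1 and Gm52318 reach over it. The other 3 overlapped both Sapcd1 and Vwa7, which run on opposite strands, and had pileups of 14, 25 and 34 and folds of 3.71, 5.73 and 4.75. Mlh3, the MutL nuclease subunit (chromosome 12, 85234466 to 85270647, 36.2 kb), had no peak within 30 kb, and the nearest was 222238 bp away.

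Hfm1, a DNA helicase of the crossover pathway (ENSMUSG00000043410, chromosome 5, 106840192 to 106926321, minus strand), had the highest fold of the 9 genes as the authors computed it, although without the pseudocount of 1 its best fold was 17.0, below 24.4 in Spo11 and 19.0 in Mei4. Its peak at 106842474 to 106842525 had a pileup of 12 (6.2 to 21) against a level of 0.708, exactly 1 input tag. The fold was 7.61 (4.22 to 12.9) and the -log10 q 7.84. The other peak, at 106840277 to 106840361, had a pileup of 15 (8.40 to 24.7) against a level of 4.25, or 6 input tags, with a fold of 3.05 (1.79 to 4.91) and a -log10 q of 2.08. Pileup alone would rank these peaks the other way round from fold. The summits lay 2326 and 166 bp from the annotated 3′ end. Both peaks overlapped Hfm1 alone and were also paired with Gm27527, at least 37075 bp away.

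Rnf212, which encodes a RING-domain protein of meiotic chromosomes linked to SUMO modification (chromosome 5, 108728105 to 108775067, minus strand, 47.0 kb), was not in the table, yet its reference body held 1 called peak. This peak, at 108728190 to 108728239, had a pileup of 8 (3.45 to 15.8) against a level of 0.885 and a fold of 4.78, and its summit was 97 bp inside the annotated 3′ end. A second peak, at 108727981 to 108728096, ended 9 bp past that end and had a pileup of 10 (4.80 to 18.4), a level of 0.637 and a fold of 6.72. The authors' deposited table paired the first with 1700047L14Rik, 35603 bp away, and the second with Fgfrl1, 21056 bp away. With reference gene bodies in place of the table's, 5 of the 9 genes were therefore overlapped, by 11 peaks, as were 24.1% of protein-coding genes. Of 5284 protein-coding genes with a peak in the reference body, 221 (4.18%) were likewise missing from the table.

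The 4 overlapped genes had best folds of 7.61 in Hfm1, 7.31 in Spo11, 5.85 in Mei4 and 3.86 in Msh4. Neighbours in this order had overlapping intervals, and so did Hfm1 and Msh4 (4.22 to 12.9 against 2.48 to 5.76), so the order is not set at this depth. Among 6091 overlapped genes counted by symbol, whose median best fold was 4.38, these best folds were at or above those of 91.3%, 89.2%, 74.2% and 41.0%. By -log10 q the places were 72.6% for Hfm1, 65.7% for Spo11, 55.8% for Msh4 and 38.0% for Mei4. Fold and -log10 q thus gave Mei4 and Msh4 opposite orders. A best fold is the largest over a gene's peaks, of which Mei4 had 4 and the other genes 2 each. The series held 126 peaks with the pileup and fold of the best Hfm1 peak, and 162 with those of the best Spo11 peak.

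The input level is part of each fold, so at a given pileup a lower level gives a larger fold. The 3 largest folds, in Hfm1, Spo11 and Mei4, were at levels of 1 input tag or less, and the Msh4 folds were at 7 and 12 input tags. Set among peaks at the same input level, the first Spo11 peak had a higher pileup than 80.7% of 2093 peaks, and the second a higher one than 28.7% of 1137. The Hfm1 peak of fold 7.61 was above 85.5% of 2264, and the other Hfm1 peak above 6.83% of 747. For the Msh4 peaks these shares were 54.1% of 634 (pileup 22) and 67.8% of 574 (pileup 32). The first and second Mei4 peaks stood above 0% of the peaks at their levels, the one of pileup 14 above 14.4%, and the fourth above 37.5%. At a pileup of at least 20, Msh4 alone of the 9 genes kept a peak, and 17.1% of protein-coding genes did. From peaks paired with exactly 1 gene, Mei4 and Msh4 kept a peak, against 9.75% of protein-coding genes.

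**Figure D2:**
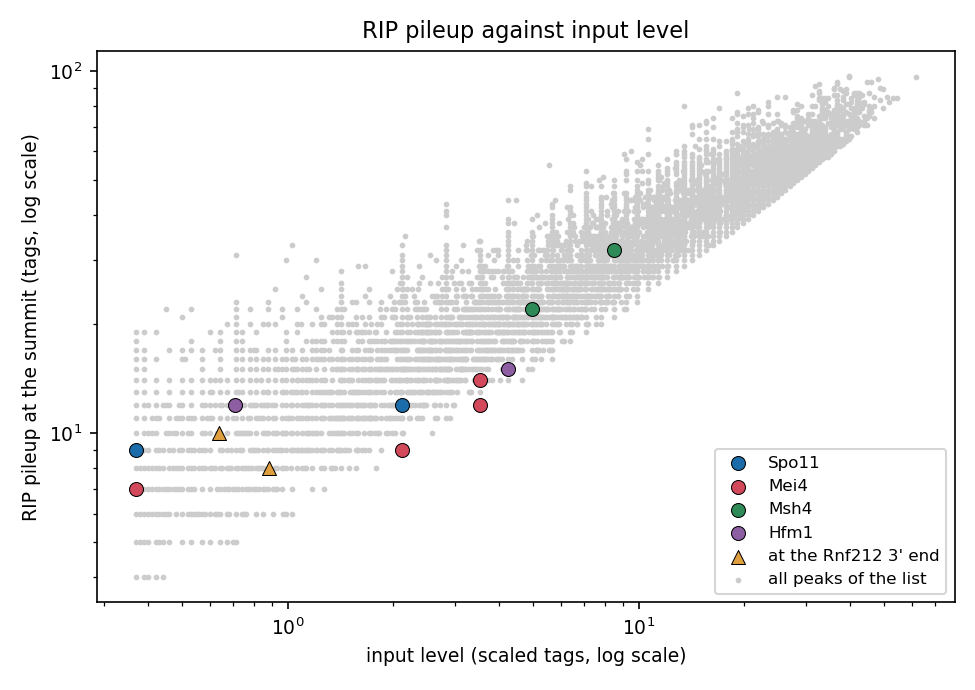
RIP pileup at the summit (tags, log scale) against input level (scaled tags, log scale) for the peaks of the recombination genes (coloured points), the 2 peaks at the Rnf212 3′ end (triangles) and all 28332 peaks (grey). The Mei4 points at levels of 2.12 and 3.54 include the lowest pileups called there, 9 and 12, and the Msh4 points lie at the highest input levels of the set.

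Over the 10 peaks the median input level was 2.83, against 7.79 over the 19371 peaks of the series that overlap exactly 1 gene. The median pileup was 12 against 27, and the median fold 3.67 against 3.28. At or below 1 input tag lay 3 of the 10 peaks (30.0%) and 13.4% of the 19371. The Msh4 peak of pileup 32 at a level of 8.49 was above both series medians of pileup and input level, and the other 9 peaks were below both.

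The position of the peaks differed from gene to gene. In Hfm1 both summits lay in the last 10% of the gene body, at 97.3% and 99.8% of its length. In Spo11 they lay at 71.2% and 97.3%, the second 429 bp from the 3′ end. Mei4 had summits at 18.6%, 47.3%, 47.4% and 68.9%, and none within 5 kb of the 3′ end. Msh4 had both in the first 10%. Together, 3 of 10 summits were in the last 10% of the body (30.0%, exact binomial 95% interval 6.67 to 65.2) and 2 of 10 in the first (20.0%, 2.52 to 55.6). Of the 19371 peaks in exactly 1 gene, 46.6% lay in the last 10% and 4.68% in the first. The interval for the last 10% covers the 46.6%, and that for the first 10% covers the 4.68%. With 10 peaks, neither share could be told apart from that of the series. Peaks of 1 gene share a transcript and are not independent, which these intervals ignore. The 2 in the first 10% are neighbours in Msh4.

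**Figure D3:**
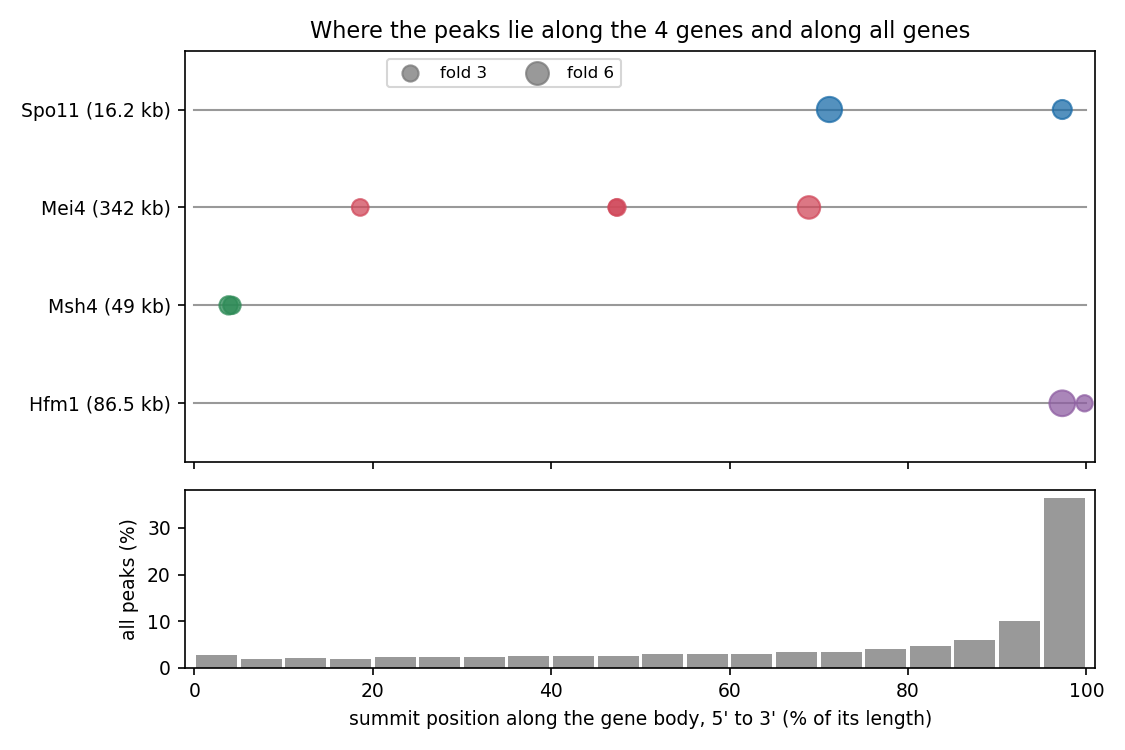
Upper part: summit positions of the 10 peaks along the gene bodies of Spo11, Mei4, Msh4 and Hfm1 (percent of length, 5′ to 3′), with point area proportional to fold. Lower part: share of all 19371 peaks in exactly 1 gene by position, in bins of 5%. The Hfm1 points sit at the 3′ end and the Msh4 points at the 5′ end.

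Counted against other genes, 4 of 9 is a share of 44.4% (exact binomial 95% interval 13.7 to 78.8). A peak overlapped 11.5% of all 49997 reference genes, 23.4% of the 21900 protein-coding ones, and 34.8% of the 10861 protein-coding genes within the length range of the 9 (16.2 to 342 kb). The interval covers the 2 protein-coding shares, so with 9 genes the count could not be told apart from that background. These shares take no account of expression, which was not analysed here.

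The other genes of the pathway gave a larger list. Of 63 such genes, 26 were overlapped (41.3%, 29.0 to 54.4), an interval above 23.4% and covering 34.8%. This list was written with earlier results of these data known, and the shares are not matched for expression. The interval is therefore a description and not a test of enrichment. The 34.8% is for the length range of the 9 genes and is not matched to these 63. Some of them lie outside that range, such as Rpa3 (3.21 kb). By step, 5 of 10 other genes of break formation were overlapped, 10 of 29 of strand exchange and resection, and 11 of 24 of crossover formation and resolution. The median best fold was 6.58 for the 4 overlapped genes above and 4.43 for these 26, beside 4.38 for all overlapped genes. This order did not hold in 2 of 3 other settings. At a pileup of at least 10 the medians were 4.01, 4.42 and 3.92, and from peaks paired with exactly 1 gene 3.53 (Mei4 and Msh4), 4.41 and 4.38. At a pileup of at least 20 it held, with 3.86 (Msh4 alone), 3.72 and 3.30. Led by fold, the 26 included Hormad1, an axis protein that promotes break formation (9.95 at a pileup of 16), and Shoc1, a crossover factor listed as AI481877 (9.95, also at 16). Next were Rpa1, a subunit of the single-strand DNA-binding complex (6.92 at 14), the helicase gene Blm (6.70 at 14) and Cdk2, a kinase found at crossover sites (6.26 at 23). Partners of the 9 genes fell on both sides. Rec114, which works with MEI4, was overlapped (3.75 at a pileup of 24), as was Iho1, listed as Ccdc36 (3.73 at 15, at a peak over 2 genes). Top6bl, the second subunit of the SPO11 complex, was not overlapped, nor were Psmc3ip and Mnd1, the accessory factors of DMC1.

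Alongside these, 4 of 10 genes of the chromosome axis and cohesin were overlapped, led by Hormad1 and Hormad2 (8.04 at a pileup of 10). Of 6 genes of the synaptonemal complex centre, 4 were, led by Six6os1, listed as 4930447C04Rik (6.85 at 25), and Tex12 (5.37 at 31). Hormad1 is in the axis list and in that of break formation. Among cell type markers, 5 of 8 of germ cells were overlapped (Ddx4, Dazl, Kit, Taf4b and Bmp15), and Sohlh1, Figla and Nobox were not. Of 28 somatic and blood markers 2 were, Fshr and Tek. The share of all protein-coding genes was 23.4%. A gene without a peak may still be present in both RIP and input, so these counts do not give the cell makeup of the ovaries.

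**Figure D4:**
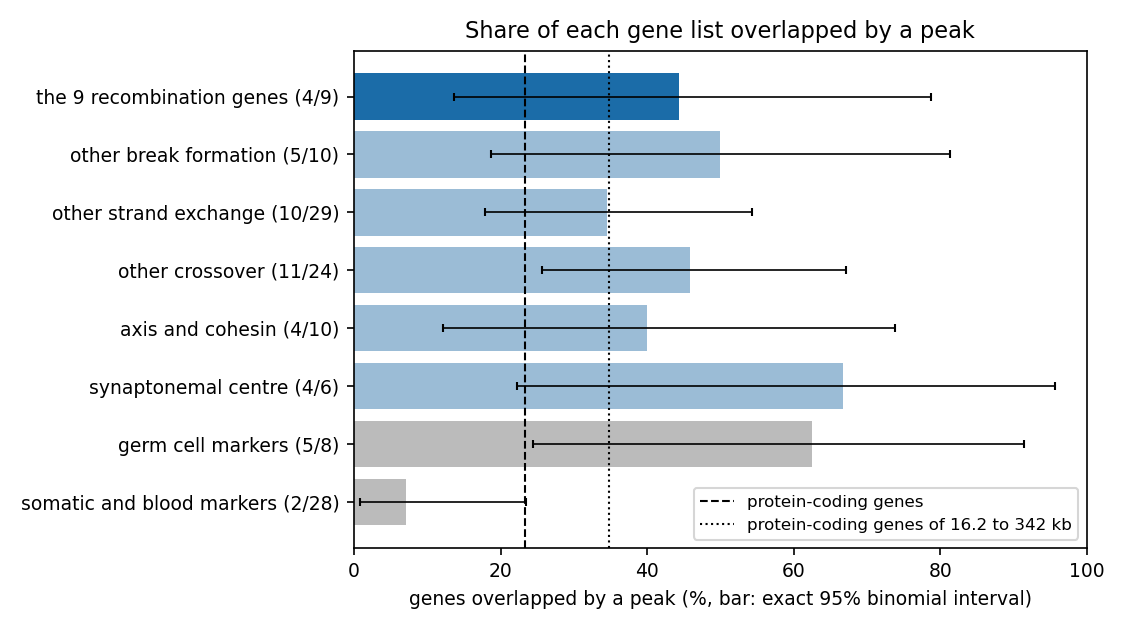
Share of each gene list overlapped by a peak (bars, %, with exact binomial 95% intervals; overlapped and total genes in parentheses). Dashed and dotted lines mark all protein-coding genes (23.4%) and those of 16.2 to 342 kb (34.8%). The bar of the 9 genes, 44.4%, has an interval that covers both lines.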

How the data were processed

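RNA from 1 ELAVL2 RIP and 1 input sample was amplified, made into libraries and read as single 36-base tags, per the labels' protocols. The submitters' processing notes name CASAVA 1.8.2, FastQC 0.11.2, the aligner TopHat2 2.0.8b, the peak caller MACS2 2.1.0.20140616 and the build mm10. The authors combined 3 RIP lanes, and 3 input lanes, per the file headers. They kept 1 tag per position and strand, extended tags to 50 bp and called peaks at a q cutoff of 0.05. The pileup is the authors' deposited signal. The authors' fold is a ratio with a pseudocount of 1 on both sides. The -log10 p and -log10 q were deposited by the authors. The caller was made for DNA and ignores splicing and strand, and removal of tags at repeated positions caps the pileup of abundant RNAs. The making of the authors' deposited gene table was not stated. It had 85730 rows, or 43554 after exact repeats were dropped. None of the rows of the 9 genes was upstream or downstream.

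The input level is (pileup + 1)/fold - 1. A Poisson p recomputed from it differed from the deposited -log10 p by at most 5.62e-05. Levels within 0.01 of a whole number of input tags were given as such. Reference genes were RefSeq's (GRCm38.p6, the assembly of mm10), matched by symbol or unambiguous synonym. All 9 genes matched, and of the other lists only Spo16 did not. Overlap with reference genes, position along a gene taken as plus-strand and the input level formula were tested on simulated peaks. Positions on the minus strand and the reading of the authors' deposited gene table were not tested this way. Scripts ran in Python 3.11.15 with scipy 1.17.1, pandas 2.3.3 and numpy 2.4.6, and matplotlib 3.10.9 drew the figures. The genes and lists were chosen with earlier results of these data known. All 9 genes were named with all their peaks, the 5 genes of largest best fold in the other pathway lists, and the 2 of largest best fold in the axis and synaptonemal lists. Partners of the 9 genes and the cell type markers were named after their values were seen. Alternatives were stricter q, pileup and fold thresholds, peaks paired with 1 gene, merged peaks, nearest genes, reference bodies, input above 1 tag, other end windows and a fold without the pseudocount.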

Additional observations from a re-analysis of the deposited data

Results flagged for a closer look

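Called peaks outside the table's pairing with these genes lay at 3 of them, Rnf212, Msh4 and Msh5. At Rnf212 a peak inside the 3′ end of the reference body had a fold of 4.78 and a peak 9 bp past that end one of 6.72, and the table pairs neither with Rnf212. At Msh4 a peak 1550 bp past the 3′ end, paired with Asb17os, had a fold of 5.85. Past the 3′ end of Msh5, toward and within Sapcd1, the folds were 3.71, 5.73, 4.75 and 4.80. Which transcript these tags came from was not tested, and the peaks carry no strand.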

How the results depend on the processing

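No paired analysis was possible because there is 1 sample per group. The count of 4 overlapped genes was 1 (Msh4) at a pileup of at least 20 and 2 (Mei4 and Msh4) with peaks paired with exactly 1 gene, and 4 or 5 under the other 7 alternatives. The 10 peaks were 2 and 3 under those settings, and 7 to 11 otherwise. With peaks paired with exactly 1 gene, 10 of the 63 other pathway genes, 2 of the axis genes and 2 of the synaptonemal genes were overlapped. The share of protein-coding genes was 9.75% under that rule. The setting of exactly 1 paired gene drops a peak inside 1 gene that is also paired with a gene outside it. Without the pseudocount the best folds were 24.4 in Spo11, 19.0 in Mei4 and 17.0 in Hfm1. The median best fold of the overlapped genes, 6.58, was 18.0 without the pseudocount, 4.01 at a pileup of at least 10, 3.86 (Msh4 alone) at a pileup of at least 20 and 3.53 from peaks paired with exactly 1 gene. The share of summits in the last 10%, 30.0%, was 37.5% with neighbouring peaks merged and 36.4% with reference bodies. Wider windows held 30.0% (last 20%) and 40.0% (within 5 kb of the 3′ end). In the series, 10379 of the 19371 peaks lay within 5 kb of that end. The last 4 bins of 5% held 4.59, 5.98, 10.1 and 36.4% of the series peaks. The alternatives for the axis and synaptonemal lists, and for the median best folds of the other pathway genes and of all overlapped genes, were chosen after seeing the data. Low tag numbers limit precision: 8 of the 10 pileups were 15 or lower.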

Other observations

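Other genes of the pathway, picked here after their values were seen, also differed in where their peaks lay. Hells, a chromatin remodeller that acts with PRDM9, held 11 peaks, 10 of them in the last 10% of the gene body, with a highest pileup of 48. Spata22, a meiotic partner of single-strand DNA-binding proteins, held 7 peaks with none in the last 10%, and Palb2, which links BRCA1 and BRCA2, held 7 with 1 there. Shoc1 held 4 and none there. Over all 82 peaks of the other pathway genes, 42.7% (exact binomial 95% interval 31.8 to 54.1) were in the last 10% and 1.22% (0.0309 to 6.61) in the first. Peaks of 1 gene are not independent, which these intervals ignore, and Hells gave 10 of the 35 in the last 10%.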
